A study of Mus musculus with 18 samples.

Results

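The left ventricle of cyclin D2 transgenic mice under pressure load was set against the left ventricle of wild-type mice that had no operation. The comparison rests on 8 of the 18 libraries of the series, 3 from transgenic mice with transverse aortic constriction (TAC) and 5 from wild-type (WT) mice, chosen by their titles. Another 5 libraries, from transgenic mice with a sham operation, are shown beside them, because they tell where the transgenic heart stood before load. All of these mice were F1 offspring with the genetic background (DBA/2J x C3HeB/FeJ)F1. WT mice had the wild-type genotype and no treatment, and their age is not given in the sources used here. Sham and TAC mice were MHC-cycD2 transgenic and were operated at 8 weeks of age. The MHC promoter drives cyclin D2 in heart muscle cells, so the transgene is present from before the operation in both operated groups. TAC narrows the aorta with a suture tied around a needle, using a different needle size for males and females, and the time from surgery to tissue collection is not given in the sources used here. The labels describe a sham procedure for each of the 2 operations and do not say which one the sham libraries had. TAC differed from WT in genotype and in operation together, so the sham level is given wherever that bears on a value. Nothing in the labels says which libraries share a litter or a day, and p-values measure the spread between these libraries.

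Cyclin D2 pairs with the G1 kinases CDK4 and CDK6, which phosphorylate the retinoblastoma protein and release E2F factors that switch on DNA replication genes. Adult heart muscle cells have largely left the cell cycle, and this transgene is known for keeping them in it. Pressure load is known to make the ventricle return to genes of the fetal heart, among them the natriuretic peptides ANP and BNP and skeletal alpha-actin, to deposit collagen, and to shift energy use away from fatty acids.

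Before any result, the transgene itself was read in each library. Ccnd2, which encodes cyclin D2, was counted at 22050, 228 and 25843 CPM (reads of the gene scaled to a common library size) in TAC replicates 1, 2 and 4, at 168, 189, 175, 189 and 141 CPM in WT replicates 1 to 5, and at 21129 to 30478 CPM in the sham libraries. The library labelled TAC replicate 2 thus lay just above the WT range and far below all other transgenic libraries, against its label. Ccnd2 was 6.54 ± 0.83 higher in TAC than in WT (log2 fold change ± SE, adjusted p = 4.20e-05), and 7.12 ± 0.15 higher (adjusted p = 4.67e-16) with that library left out. The 279 autosomal genes that were at least 2-fold higher in sham than in WT had a median log2 distance from the WT mean of 1.10 and 1.37 in TAC replicates 1 and 4 and of 0.32 in the library labelled TAC replicate 2. Differences from WT below are given with all 3 TAC libraries, and the value in brackets leaves out TAC replicate 2.

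Other differences between libraries also ran along the groups. Gene counts per library were 23630932 to 24740087 in TAC and 19297821 to 22713301 in WT, and reads outside annotated genes were 13.64% to 14.86% in TAC and 19% to 22.78% in WT. Xist, transcribed from the inactive X chromosome, was read 3659, 2644 and 4 times across TAC replicates 1, 2 and 4 against 6 to 13 times in WT, whereas Y-linked Ddx3y was read 4, 9 and 1987 times in TAC and 2286 to 2662 times in WT. Only TAC replicate 4 matched the WT libraries in these genes, so sex-linked differences and load cannot be told apart in TAC replicates 1 and 2, and the calls that end with TAC replicate 4 alone are named with the genes, beside those already lost without TAC replicate 2. Results are restricted to autosomal genes for the same reason. Ventricular Myl2 was at 9453, 6750 and 11927 CPM in TAC replicates 1, 2 and 4, as the tissue label says, but atrial Myl7 was at 1.72, 111 and 152 CPM there and at 0.0904 to 8.09 CPM in WT. The summed level of the 8 tested atrial markers was 117, 472 and 479 CPM in the TAC libraries, 89.8 to 148 CPM in WT and 205 to 1015 CPM in sham. The clock gene Dbp was at 5.71 to 8.09 CPM in TAC, at 9.88 to 10.9 CPM in WT replicates 1 to 3, and at 176 and 164 CPM in WT replicates 4 and 5.

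Promoter sequence is shown for the genes on which the main contrast turns, Nppa, whose load rise passed far beyond WT, and Acta1, whose rise began far below WT. Both are 250 bases upstream of the RefSeq start (GRCm38.p6), 5′ to 3′ on the gene's strand, Nppa at chr4:148000472-148000721 on the plus strand and Acta1 at chr8:123894776-123895025 on the minus strand. Capitals mark matches, on both strands, to CATTCC (the M-CAT core, bound by TEAD factors), GATAA (bound by GATA factors) and the CArG box (bound by serum response factor).
Nppa: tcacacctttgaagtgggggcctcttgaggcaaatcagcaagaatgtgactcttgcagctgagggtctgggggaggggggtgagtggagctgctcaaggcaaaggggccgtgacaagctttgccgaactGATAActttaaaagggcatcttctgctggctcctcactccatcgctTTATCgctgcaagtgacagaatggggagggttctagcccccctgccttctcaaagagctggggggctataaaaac
Acta1: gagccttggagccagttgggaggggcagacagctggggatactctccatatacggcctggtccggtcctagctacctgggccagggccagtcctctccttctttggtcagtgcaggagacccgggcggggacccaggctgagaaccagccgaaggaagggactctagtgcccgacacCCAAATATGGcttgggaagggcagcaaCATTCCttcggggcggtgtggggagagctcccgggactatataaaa
The Nppa window holds 2 GATAA matches and neither of the other motifs. The Acta1 window holds 1 CArG box and 1 CATTCC match and no GATAA. Among 32851 RefSeq windows of 250 bases, 22.6% hold GATAA, 12.6% hold CATTCC and 1.5% hold a CArG box, so the letters alone are common except for the CArG box. A match describes the window and is no evidence of binding.

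Of 14241 autosomal genes tested, 2409 were higher and 2426 lower in TAC than in WT (edgeR's quasi-likelihood test, Benjamini-Hochberg adjusted p under 0.05). These are 16.9% and 17% of the genes tested, the background against which each group of genes below is read. Without the library labelled TAC replicate 2, 2221 genes (15.4%) were higher and 2244 (15.6%) lower of 14383 tested. Of the genes called with all libraries, 1875 of the higher and 1953 of the lower were also called without it, and none was called in the opposite direction. A change of at least 2-fold was reached by 745 called genes (5.23%) upward and by 425 (2.98%) downward. With the Y-linked level as a covariate the calls fell to 859 (6.03%) higher and 894 (6.28%) lower, and with TAC reduced to replicate 4 to 1143 (7.74%) higher and 1202 (8.14%) lower. In 1981 genes (13.9%) all 3 TAC libraries lay above all 5 WT libraries, and in 2389 (16.8%) they lay below.

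The difference of TAC from sham, called the load response here, was then placed against WT. Sham libraries were like WT in Xist, read 5 to 11 times, and in Ddx3y, read 2039 to 2568 times, unlike TAC replicates 1 and 2. Arntl minus Dbp was 2.43 to 3.07 on the log2 scale in TAC. It was 1.97 and 2.34 in sham replicates 1 and 2, and -7.28, -8.08 and -7.47 in sham replicates 3 to 5. TAC and sham thus differed in more than the operation. Sham was higher than WT in 13.4% and lower in 15.1% of the genes tested. TAC differed from sham in 2351 autosomal genes upward (16.5%) and in 2088 downward (14.7%). Of the rises, 1381 (58.7%) lay above WT. Another 453 (19.3%) started from a sham level below WT and did not pass against WT, and 40 (1.7%) stayed below WT. Without TAC replicate 2 these classes held 231 (14.7%) and 17 (1.1%) genes, of which 190 and 5 were in the class both ways. The remaining 477 passed no test against WT and did not start from a called sham deficit. Of the falls, 1134 (54.3%) lay below WT, 541 (25.9%) started from a sham level above WT and did not pass against WT, 29 (1.4%) stayed above WT, and 384 were not placed. Without TAC replicate 2, 405 (25.9%) started above WT without passing and 25 (1.6%) stayed above it, with 305 and 16 in the class both ways. Without TAC replicate 2 there were 1567 rises (10.9%) and 1564 falls (10.9%), with 1062 rises (67.8%) above WT and 931 falls (59.5%) below WT. The 3 comparisons share libraries, so these counts only sort genes. A gene that did not pass against WT is not shown to equal WT.

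**Figure D1:**
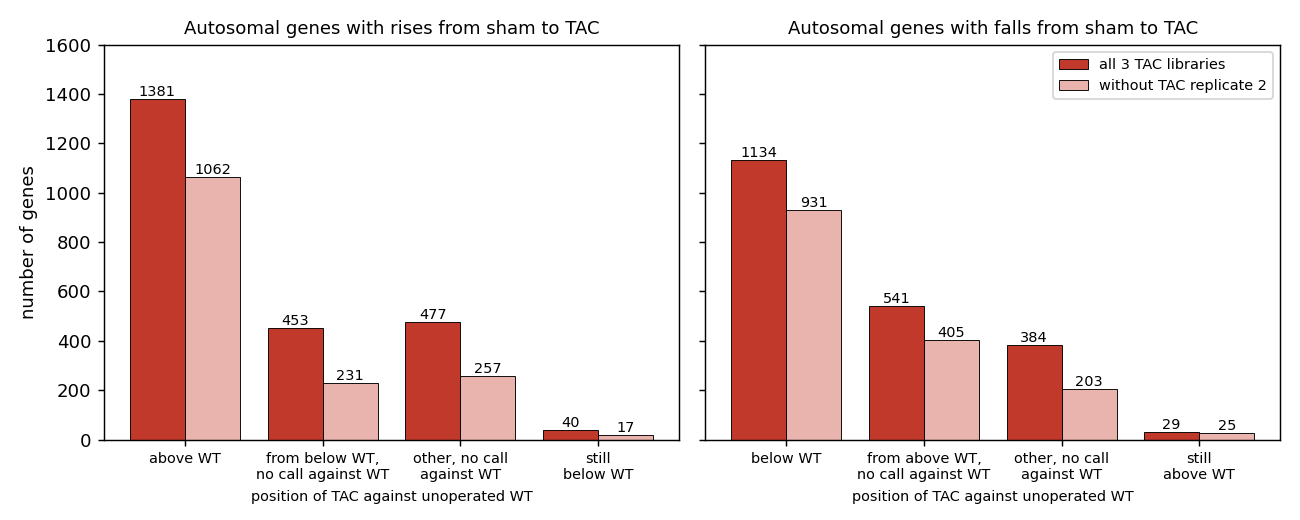
Number of autosomal genes that rose (left) or fell (right) from sham to TAC, by where TAC lay against unoperated WT, with all 3 TAC libraries (dark bars) and without TAC replicate 2 (pale bars). The largest class on each side lies beyond WT, with 1381 and 1062 rises and 1134 and 931 falls.

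Both natriuretic peptide genes were higher in TAC than in WT, Nppa by more and under more alternatives than Nppb. Nppa encodes ANP, a hormone of the loaded heart, and lies on chr4:148000722-148002079. It was counted at 3681, 4686 and 2042 CPM in TAC replicates 1, 2 and 4 and at 347, 129, 127, 170.4 and 310.2 CPM in WT replicates 1 to 5. All 3 TAC libraries were far above all WT libraries. In TAC replicate 1 the summed atrial markers, 117 CPM, were within the WT range, although the atrial Myl4 was above it at 44.7 CPM against 3.66 to 19.6 CPM. The part of atrial tissue in the Nppa level was not tested. Nppa was 4.00 ± 0.68 higher than WT on the log2 scale (adjusted p = 4.11e-04), and 3.73 ± 0.74 higher without TAC replicate 2 (adjusted p = 0.0017). Sham lay below WT by 2.25 at 36.5 to 53 CPM, so the rise from sham was 6.26 (5.96).

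Nppb, which encodes BNP and neighbours Nppa at chr4:147985788-147987205, reached 1428, 850.0 and 541 CPM in TAC and 236, 253, 173, 64.2 and 160.2 CPM in WT. All TAC libraries were above all WT libraries, with TAC replicate 1 the highest. The log2 difference from WT was 2.41 ± 0.75 (adjusted p = 0.0221; 2.48 ± 0.85 and 0.0403 without TAC replicate 2), against a rise of 4.98 (5.03) from sham. It was not called when TAC replicate 1 was left out (1.97, adjusted p = 0.1038), with TAC reduced to replicate 4 (1.61, adjusted p = 0.3575), with the Y-linked covariate (1.68, adjusted p = 0.3647) or with the clock covariate (1.89, adjusted p = 0.0639). Furin, a protease that trims BNP precursors, was higher than WT in TAC by 0.43 ± 0.11 (0.54 ± 0.11), but at 0.38 with an adjusted p of 0.0557 in TAC replicate 4 alone, and sham was higher by 0.56. Corin, the protease that activates ANP, did not pass against WT (-0.36 ± 0.19, adjusted p = 0.1503, and -0.19 ± 0.20 without TAC replicate 2), having fallen by 1.08 from a sham level above WT. Npr3, the clearance receptor that removes the peptides, was at 22.9, 30.1 and 19.5 CPM in TAC and 25.6 to 46.0 CPM in WT, -0.58 ± 0.22 (adjusted p = 0.0496, and 0.0282 without TAC replicate 2), a call that 23 of the alternatives ended, TAC replicate 4 alone among them (-0.89, adjusted p = 0.0967). Of the 10 tested genes of natriuretic peptides, their processing and receptors, 3 were higher and 1 lower than WT (4 and 1 without TAC replicate 2).

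**Figure D2:**
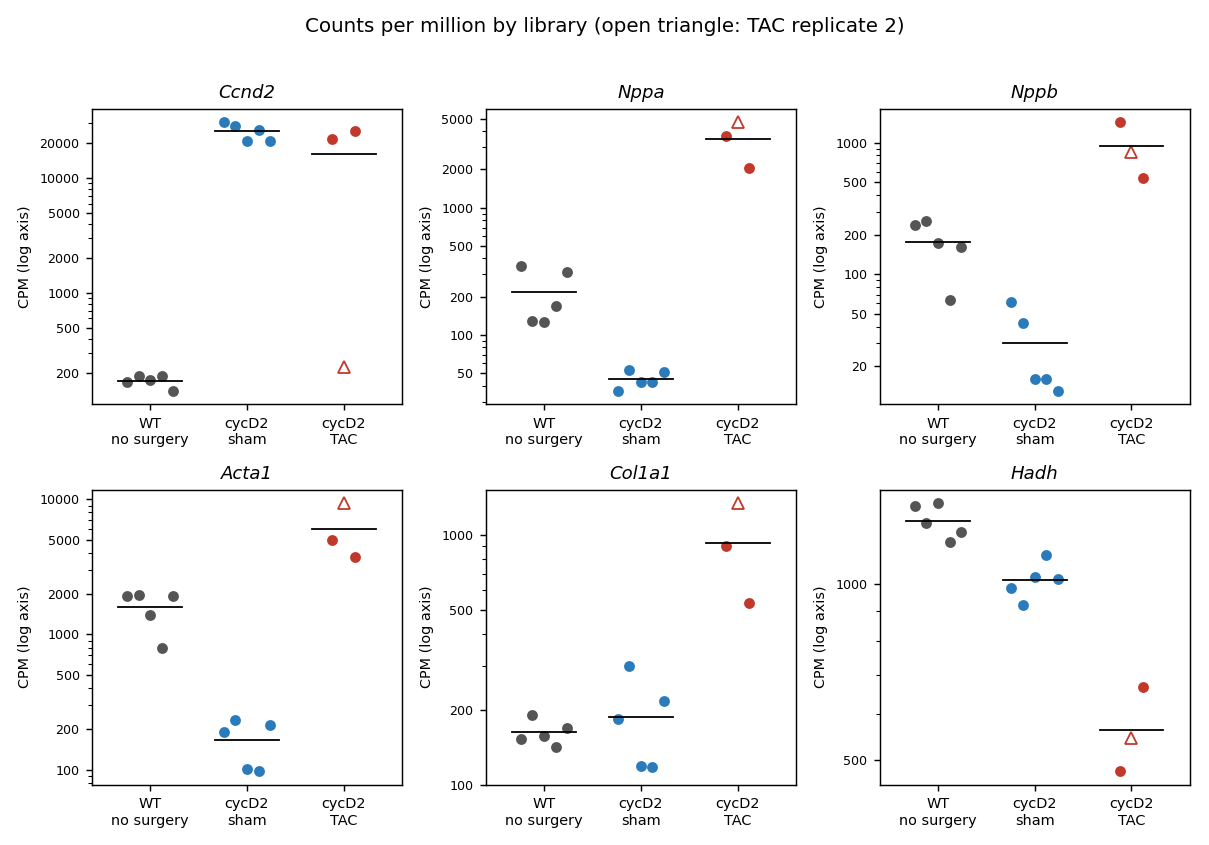
CPM on a log axis for 6 genes in each WT (grey), sham (blue) and TAC (red) library, with group means as lines and TAC replicate 2 as an open triangle. The triangle sits with WT for Ccnd2 at 228 CPM and with the other TAC libraries for the load genes, and Acta1 rises from 96.9 to 232 CPM in sham to at least 3769 CPM in TAC.

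Acta1, skeletal alpha-actin of the fetal heart, also rose from a sham level below WT, but did not pass against WT in the main fit. Its levels were 5032, 9404 and 3769 CPM in TAC and 1919, 1973, 1399, 789 and 1913 CPM in WT, while sham libraries held 96.9 to 232 CPM. Each TAC library was above each WT library, and each sham library was below. Against sham the rise was 5.19 (adjusted p = 3.46e-04, and 4.71 without TAC replicate 2), but against WT it was 1.92 ± 0.76 (adjusted p = 0.0622) and 1.46 ± 0.86 without TAC replicate 2 (adjusted p = 0.2174). The call against WT depended on the fit and the libraries in it. DESeq2 gave an adjusted p of 0.0187 and a fit of TAC and WT alone 0.0051. Acta1 was also called with only libraries in which the clock gene Arntl exceeded Dbp (1.79, adjusted p = 0.0068). Leaving TAC replicate 2 out of those libraries kept the call (1.32, adjusted p = 9.82e-04). No other alternative called it. Most of the size of the Acta1 response to load, 3.26 of 5.19 on the log2 scale, was thus the distance by which sham lay below WT. For Nppb sham lay at -2.57 from WT, beside its rise of 4.98 from sham. Whether Acta1 and Nppb differed in this was not tested.

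Of 27 tested genes of the stress and fetal program, 22 were higher than WT and none lower, with a median log2 fold change of 0.98 (18 higher, median 1.00, without TAC replicate 2), beside a median of 0.01 over all tested genes. Ankrd1, a strain-responsive protein of the muscle cell's Z disc and nucleus, stood at 6313, 7618 and 4268 CPM in TAC and 2070, 1686, 1526, 2028 and 3745 CPM in WT. It did not overlap between groups and was 1.46 ± 0.30 higher (1.26 ± 0.34), with 0.95 (adjusted p = 0.1716) in TAC replicate 4 alone. Synpo2l, an actin-binding protein of the Z disc, had 1683, 549 and 1062 CPM in TAC against 159.7 to 263 CPM in WT and was 2.50 ± 0.25 higher (2.83 ± 0.19). Xirp2, a repair protein of the intercalated disc, was 1.53 ± 0.17 higher (1.45 ± 0.18), and Enah, an actin elongation factor, 1.19 ± 0.14 higher (1.34 ± 0.13). The calcineurin target Rcan1 had 724, 620.1 and 413 CPM in TAC and 108 to 244 CPM in WT. Its log2 difference was 1.69 ± 0.32 (1.65 ± 0.37), and 1.19 with an adjusted p of 0.0982 in TAC replicate 4 alone. Csrp3, a stretch sensor of the Z disc, and Des, the muscle intermediate filament, were higher by 0.50 ± 0.08 (0.61 ± 0.08) and 0.80 ± 0.11 (0.62 ± 0.10). Gdf15, a secreted stress cytokine, was at 10.2, 34.9 and 4.59 CPM in TAC and 0.904 to 5.16 CPM in WT. TAC replicate 4 overlapped WT, and the difference of 2.3 ± 0.52 was not called without TAC replicate 2 (1.13, adjusted p = 0.0607).

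The myosin heavy chains divided. Myh7, the slow beta isoform of the fetal mouse ventricle, was at 4019, 3939 and 4615 CPM in TAC and 1948, 1861, 1892, 2878 and 2265 CPM in WT, with no overlap and a difference of 0.95 ± 0.11 (1.00 ± 0.13). Sham was already 0.47 above WT. Myh6, the fast adult isoform, was at 27498, 19050 and 30292 CPM in TAC and 22626 to 32955 CPM in WT. TAC and WT overlapped and did not differ by the test (-0.05 ± 0.13, adjusted p = 0.7948), while TAC was 0.54 below a sham level that was 0.49 above WT. Without TAC replicate 2 the Myh6 difference turned to 0.12 ± 0.12 (adjusted p = 0.4848). Of 20 adult sarcomere and Z disc genes, 2 were higher and 4 lower (4 and 2 without TAC replicate 2), among them Actn2, the Z disc actinin, higher by 0.52 ± 0.11 (0.63 ± 0.11), and Cmya5, a large scaffold protein of striated muscle, lower at -0.81 ± 0.14 (-0.65 ± 0.14). Of 15 microtubule genes, 11 were higher and none lower (7 and none without TAC replicate 2). The tubulins Tubb5 and Tuba1b were higher by 0.99 ± 0.15 (1.02 ± 0.18) and 0.91 ± 0.14 (0.87 ± 0.16), with sham above WT by 0.52 and 0.51.

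Matrix genes showed the load response least tied to the sham level. Of 19 collagen genes, 18 were higher in TAC than in WT and none lower, with a median of 1.94 (17 and none, median 1.54, without TAC replicate 2), and no collagen gene was called between sham and WT. Col1a1, the chief fibrillar collagen, was at 900.2, 1344 and 533 CPM in TAC and 153, 191, 157, 142 and 169 CPM in WT. All TAC libraries exceeded all WT libraries, with the library labelled TAC replicate 2 highest, and the difference was 2.51 ± 0.33 (adjusted p = 4.17e-05), or 2.14 ± 0.33 without that library (adjusted p = 2.11e-04). Col3a1, its partner in fibrils, was at 1496, 2316 and 861 CPM against 423, 468, 447, 274 and 358 CPM, higher by 1.98 ± 0.34 (1.58 ± 0.35) but 1.13 with an adjusted p of 0.0969 in TAC replicate 4 alone. Col8a1, a network collagen, was higher by 2.45 ± 0.31 (2.17 ± 0.33), Col1a2 by 1.97 ± 0.27 (1.61 ± 0.26) and Col6a2 by 1.67 ± 0.20 (1.49 ± 0.21).

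Matricellular proteins, which signal from the matrix to cells, moved with the collagens. Of 26 tested, 21 were higher and none lower, with a median of 2.05 (19 and 1, median 1.66, without TAC replicate 2). Postn, periostin of activated fibroblasts, reached 436, 908 and 198 CPM in TAC against 55.1, 97.1, 45.3, 49.8 and 62.9 CPM in WT. The groups were apart, the library labelled TAC replicate 2 was highest, and the difference was 3.05 ± 0.59 (2.35 ± 0.60) but 1.67 with an adjusted p of 0.1557 in TAC replicate 4 alone. Ccn2, connective tissue growth factor, was at 770.3, 660.1 and 212 CPM in TAC and 61.8, 98.4, 98.7, 132 and 109.8 CPM in WT, higher by 2.45 ± 0.53 (2.3 ± 0.59) and by 1.08 in TAC replicate 4 alone (adjusted p = 0.3470). Tnc, the embryonic adhesion protein tenascin C, was at 31.4, 59.9 and 9.66 CPM in TAC and 1.47 to 2.22 CPM in WT, higher by 4.15 ± 0.62 (3.44 ± 0.62). With the Y-linked covariate Tnc was not called (2.33, adjusted p = 0.0655). Spp1, osteopontin, varied most, with 1.32, 15.9 and 3.99 CPM in TAC and 0.199 to 0.891 CPM in WT. Its difference of 3.55 ± 0.68 was 2.13 ± 0.59 without TAC replicate 2. Spp1 was not called with the Y-linked covariate (2.69, adjusted p = 0.0752). Sparc, a collagen chaperone of the matrix, was higher by 1.49 ± 0.22 (1.40 ± 0.25), and the microfibril protein Mfap4 by 3.00 ± 0.46 (2.78 ± 0.50).

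Among 26 genes of collagen processing, 18 were higher and 2 lower (13 and 2 without TAC replicate 2). Bmp1, which trims procollagen, was higher by 1.05 ± 0.11 (0.93 ± 0.12), the gelatinase Mmp2 by 1.32 ± 0.15 (1.14 ± 0.15) and the crosslinking oxidase Loxl2 by 1.81 ± 0.31 (1.48 ± 0.32), the last being 1.04 with an adjusted p of 0.0991 in TAC replicate 4 alone. Lox, another crosslinking oxidase, was at 21.4, 56.9 and 10.9 CPM in TAC and 3.30 to 8.87 CPM in WT, a difference of 2.24 ± 0.42 (1.36 ± 0.36) that was 0.80 with an adjusted p of 0.2550 in TAC replicate 4 alone. Of 22 TGF-beta genes, 12 were higher and 1 lower (11 and 1). The ligand Tgfb2 was at 83.8, 57.4 and 47.0 CPM in TAC and 12.6, 13.7, 9.48, 13.9 and 13.3 CPM in WT, far apart in every library, with a difference of 2.32 ± 0.20 (2.38 ± 0.22). Tgfb3 was higher by 1.25 ± 0.14 (1.13 ± 0.15) and Tgfb1 by 0.64 ± 0.12 (0.61 ± 0.14). The latent TGF-beta binding protein Ltbp1 was the lower member, at -0.45 ± 0.10 (-0.45 ± 0.12). In TAC replicate 4 alone Tgfb1 and Ltbp1 were not called (0.44, adjusted p = 0.1091, and -0.37, adjusted p = 0.1271).

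Cell type markers moved beside these lists. The summed level of 9 activated fibroblast markers, a list that holds Postn and Cilp itself, was 859.8, 1629 and 408 CPM in TAC and 91.0 to 212 CPM in WT, and 7 of 9 were higher (7 of 9 without TAC replicate 2). The sum of 9 general fibroblast markers, which include Col1a1, was 4500, 6931 and 3275 CPM in TAC and 2895 to 3481 CPM in WT, so TAC replicate 4 lay within the WT range while its collagen list median was 1.17 above WT. Macrophage markers were higher for 5 of 12 with all libraries and for none without TAC replicate 2. In bulk tissue, more or fewer cells of a type and more or less RNA per cell cannot be told apart, and the part of cell numbers in the matrix genes was not tested.

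**Figure D3:**
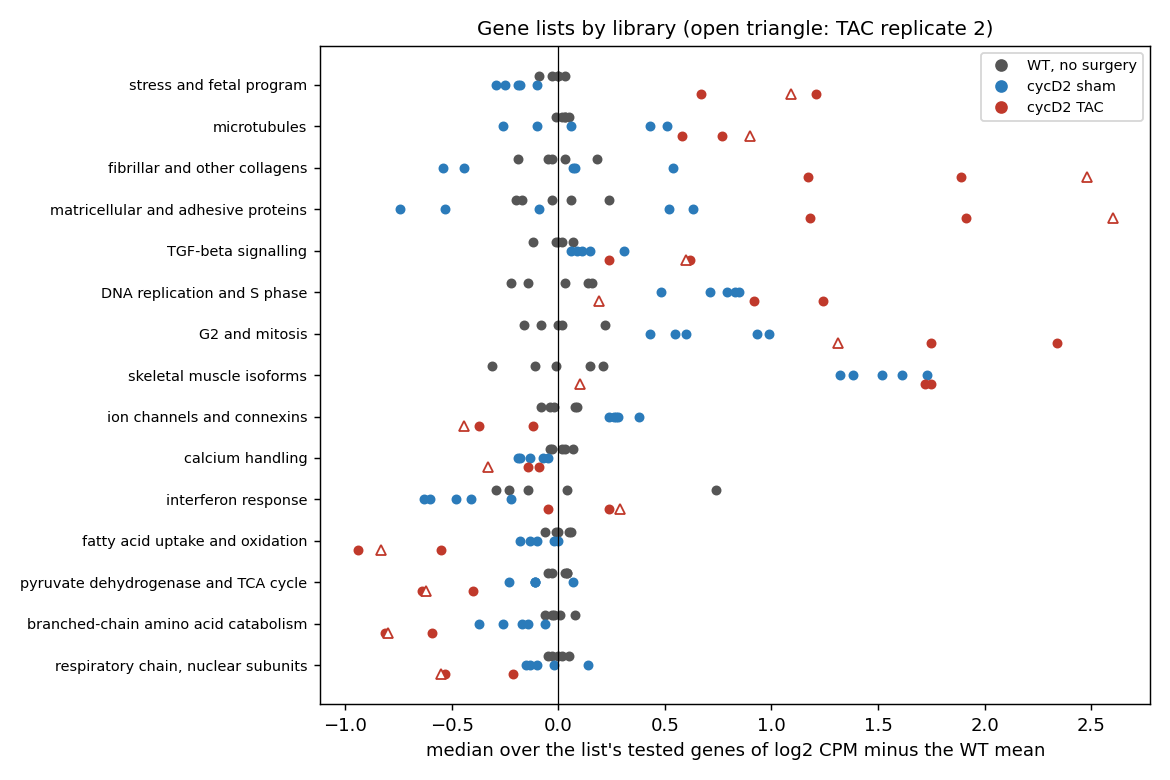
Median over each list's tested genes of log2 CPM minus the WT mean, 1 point per library (WT grey, sham blue, TAC red, TAC replicate 2 as an open triangle). Collagens lie at 1.89, 2.48 and 1.17 in TAC replicates 1, 2 and 4 and fatty acid genes at -0.94, -0.83 and -0.55, whereas DNA replication genes lie at 1.24, 0.19 and 0.92.

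Genes of oxidative metabolism were lower in TAC than in WT almost throughout. Fatty acid uptake and oxidation had 33 of 38 genes lower and none higher, with a median of -0.76 (30 lower, median -0.73, without TAC replicate 2). Sham was lower than WT in 11 and higher in 2 of the 38, and TAC was lower than sham in 31 and higher in 1. Hadh, a dehydrogenase of the mitochondrial beta-oxidation cycle, was at 479, 547 and 668 CPM in TAC and 1363, 1276, 1378, 1181 and 1227 CPM in WT. The 3 TAC libraries were close together and all well below WT, and the difference was -1.19 ± 0.09 (-1.16 ± 0.11; adjusted p = 3.14e-07 and 9.77e-07). Sham lay at -0.34 from WT, so part of the gap was present without banding. Hadhb, the thiolase subunit of the trifunctional protein, and Etfdh, which passes electrons from beta-oxidation to ubiquinone, both lay at -1.09 ± 0.09 (-1.10 ± 0.10 and -1.09 ± 0.10). Acadm, the medium-chain acyl-CoA dehydrogenase, was at 697, 695 and 886 CPM against 1509 to 1752 CPM, -1.11 ± 0.09 (-1.05 ± 0.10). Lpl, which frees fatty acids from lipoproteins, was at -0.99 ± 0.09 (-1.04 ± 0.10).

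All 26 tested genes of pyruvate dehydrogenase and the TCA cycle were lower than WT (25 without TAC replicate 2), with a median of -0.55 (-0.51). Sham was lower than WT in 9 of the 26, and TAC was lower than sham in 24. Sucla2, a succinyl-CoA synthetase subunit, was at -0.84 ± 0.08 (-0.79 ± 0.09), and Dld, the shared E3 subunit of the ketoacid dehydrogenases, at -0.74 ± 0.07 (-0.69 ± 0.08). Pdhx, the E3-binding component of pyruvate dehydrogenase, was at 148, 175 and 163 CPM in TAC, 251 to 297 CPM in WT and 158 to 175.0 CPM in sham. It was lower than WT in both transgenic groups, by -0.80 ± 0.08 (-0.85 ± 0.09) in TAC and -0.75 in sham, and TAC did not pass against sham (-0.05, adjusted p = 0.6931). Of 39 nuclear genes of the respiratory chain, 31 were lower and none higher (23 without TAC replicate 2), among them Uqcrc2 of complex III at -0.60 ± 0.07 (-0.59 ± 0.08).

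Branched-chain amino acid catabolism was lower in all 20 of its genes, with and without TAC replicate 2 (median -0.74 and -0.72). In sham 10 of the 20 were already lower than WT (median -0.22), beside 15.1% of all genes. TAC was lower than sham in 19 (17 without TAC replicate 2), with a median of -0.54. Bckdha, the catalytic subunit of the committed step, was at 168, 214 and 237 CPM in TAC and 487, 451, 483, 511 and 466 CPM in WT, a clear separation of -1.22 ± 0.13 (-1.24 ± 0.15). Ivd, which oxidises isovaleryl-CoA from leucine, was at -1.04 ± 0.12 (-0.97 ± 0.13), Hibadh of the valine route at -0.85 ± 0.08 (-0.86 ± 0.09) and the propionyl-CoA carboxylase Pcca at -0.74 ± 0.07 (-0.71 ± 0.08). Of 5 ketone body genes, 3 were lower, among them Acat1, which splits acetoacetyl-CoA, at -0.85 ± 0.08 (-0.79 ± 0.09) and Oxct1, the gateway enzyme of ketone use, at -0.40 ± 0.07 (-0.33 ± 0.07). Oxct1 was not called with the Y-linked covariate (-0.26, adjusted p = 0.0745). Sham was lower than WT in 2 of the 5 ketone body genes, and TAC was lower than sham in 2 and higher in 1.

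Glucose genes were mixed, with 4 of 24 higher and 12 lower (4 and 11). Slc2a4, the insulin-responsive glucose transporter, was at 382, 456 and 455 CPM in TAC and 633 to 767 CPM in WT, -0.71 ± 0.12 (-0.75 ± 0.15). Pfkp, the platelet-type phosphofructokinase, was at 201, 162 and 141 CPM against 55.5 to 82.5 CPM, 1.27 ± 0.18 (1.29 ± 0.21). The lactate exporter Slc16a3 was higher by 1.82 ± 0.25 (1.78 ± 0.28), and Ldhb, the lactate-oxidising subunit, was lower at -0.71 ± 0.08 (-0.71 ± 0.10). The summed level of 9 cardiomyocyte markers, 87174, 64696 and 98238 CPM in TAC and 82543 to 96279 CPM in WT, was below WT only in the library labelled TAC replicate 2.

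DNA replication genes were higher than WT in sham and in TAC, and the library labelled TAC replicate 2 bears on how far TAC exceeded sham. Of 37 DNA replication genes, 27 were higher in TAC than in WT and none lower (32 without TAC replicate 2), but 26 were also higher in sham than in WT, and 2 were higher in TAC than in sham, or 9 without TAC replicate 2. The list's median distance from the WT mean was 1.24, 0.19 and 0.92 in TAC replicates 1, 2 and 4 and 0.48 to 0.85 in sham, so the library labelled TAC replicate 2 was below and the other TAC libraries above every sham library. Mcm2, a subunit of the replicative helicase, was at 80.1, 8.32 and 76.9 CPM in TAC, 8.13, 6.08, 7.62, 8.91 and 10.6 CPM in WT, and 43.2 to 51.0 CPM in sham. The library labelled TAC replicate 2 lay within WT, and the other TAC libraries lay above sham. The difference from WT was 2.73 ± 0.43 with it and 3.25 ± 0.12 without it. Its partners Mcm5 and Mcm7 were higher than WT by 2.06 ± 0.34 (2.50 ± 0.18) and 1.35 ± 0.23 (1.70 ± 0.13), and the ribonucleotide reductase subunit Rrm1 by 0.88 ± 0.15 (1.15 ± 0.08). In TAC replicate 2 these stood at 7.73 CPM for Mcm5, 9.35 CPM for Mcm7 and 24.7 CPM for Rrm1, each within or just above its WT range of 4.79 to 8.47, 6.50 to 9.99 and 21.3 to 23.7 CPM.

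Of 32 genes of G2 and mitosis, 28 were higher than WT and 1 lower, with a median of 1.98 (27 and none, median 2.21), and 25 were higher in TAC than in sham (26 without TAC replicate 2). Plk1, the kinase that drives entry into mitosis, was at 4.35, 3.12 and 3.44 CPM in TAC and 0.548, 0.567, 0.442, 0.633 and 0.713 CPM in WT. Here TAC replicate 2 stood with the other TAC libraries, and the difference was 2.63 ± 0.40 (2.73 ± 0.45). Bub1b, a spindle checkpoint kinase, was at 13.3, 3.87 and 11.3 CPM in TAC, 1.03 to 1.97 CPM in WT and 3.70 to 5.29 CPM in sham, so that TAC replicate 2 was above WT and within the sham range (2.80 ± 0.32, and 3.17 ± 0.24 without it). The spindle factor Tpx2 was higher by 2.38 ± 0.31 (2.62 ± 0.31), and Cdc20, which activates the anaphase-promoting complex, by 2.18 ± 0.30 (2.40 ± 0.31).

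Regulators of G1 were higher in 11 and lower in 3 of 27 (14 and 1 without TAC replicate 2). E2f1, the activator E2F, was at 15.7, 3.55 and 12.7 CPM in TAC and 1.39 to 2.50 CPM in WT, higher by 2.6 ± 0.41 (3.02 ± 0.33), and Rbl1, the retinoblastoma relative p107, was higher by 0.90 ± 0.18 (1.17 ± 0.13). Cdkn2c, an inhibitor of CDK4 and CDK6, stood at 29.6, 13.1 and 32.6 CPM in TAC, 8.92 to 10.2 CPM in WT and 35.3 to 41.0 CPM in sham. It was above WT in every TAC library yet fell by 0.57 from sham (adjusted p = 0.0246), or by 0.28 without TAC replicate 2 (adjusted p = 0.0336).

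**Figure D4:**
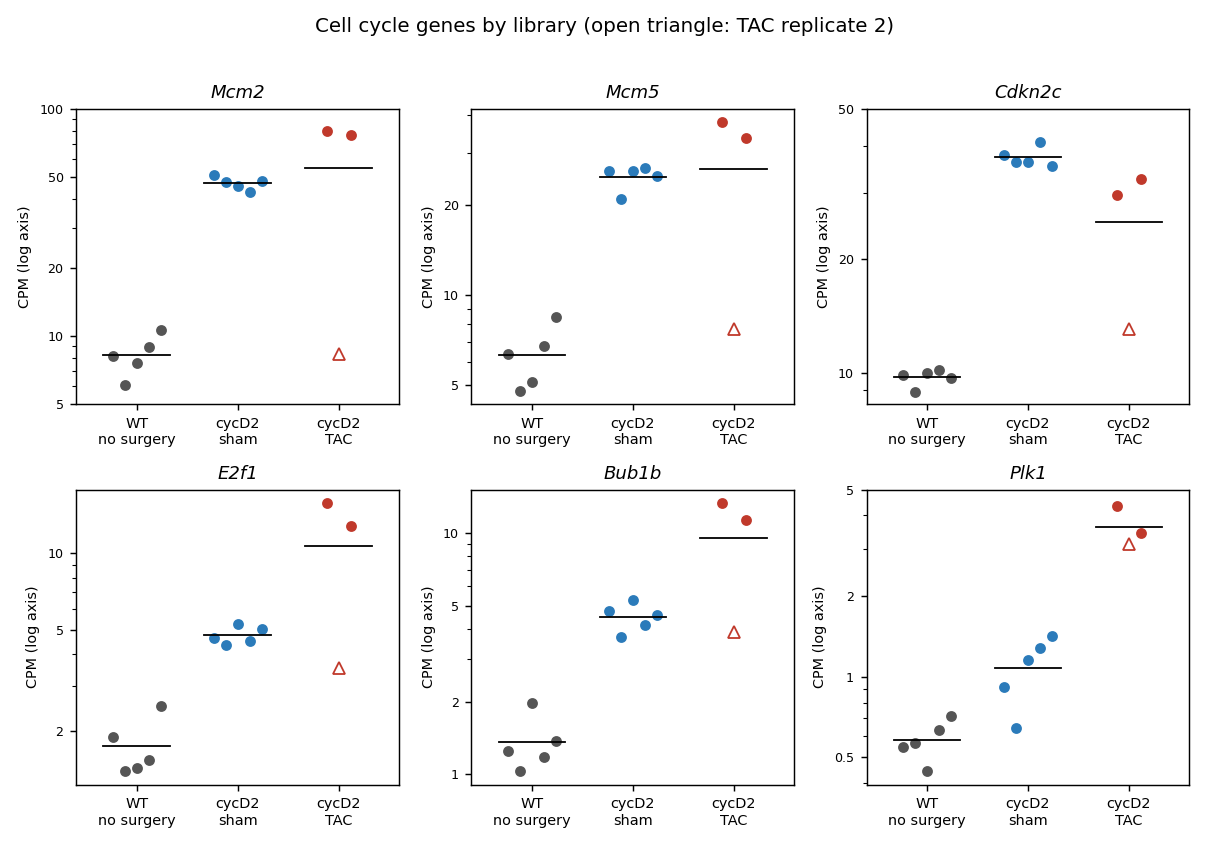
CPM on a log axis for 6 cell cycle genes in WT (grey), sham (blue) and TAC (red) libraries, with group means as lines and TAC replicate 2 as an open triangle. The triangle lies within WT for Mcm2 at 8.32 CPM and with the other TAC libraries for Plk1 at 3.12 CPM.

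Besides Acta1, the rises that began below WT and did not pass against WT included Bdh1, Tmem171, Ptgds and Edn3. Bdh1, which interconverts the ketone bodies, was at 189, 391 and 107 CPM in TAC, 402, 375, 366, 362 and 398 CPM in WT and 18.7 to 48.9 CPM in sham. TAC replicate 2 lay within WT, and the others lay between sham and WT (-0.73 ± 0.46, adjusted p = 0.2415, and -1.36 ± 0.51, adjusted p = 0.0569, without it). Ptgds, a prostaglandin D2 synthase, was at 76.9, 369 and 152 CPM in TAC against 257 to 386 CPM in WT. It did not pass with all libraries (-0.71 ± 0.45, adjusted p = 0.2442) and was below WT without TAC replicate 2 (-1.50 ± 0.44, adjusted p = 0.0187). Edn3, a ligand of the endothelin receptors, was at 19.6, 6.35 and 20.6 CPM against 3.12 to 11.1 CPM, and turned to a call above WT without that library (1.21 ± 0.48, adjusted p = 0.0637, then 1.59 ± 0.49, adjusted p = 0.0214). Tmem171, a membrane protein, was within the WT range (-0.62 ± 0.69, adjusted p = 0.5234, and -1.24 ± 0.82 without TAC replicate 2). Its rise of 2.86 from sham was not called without TAC replicate 2 (2.22, adjusted p = 0.0750).

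Rises that stayed below WT were few. Their median log2 change was 0.65 from sham and -0.70 from WT with all libraries. Neurl1a, an E3 ubiquitin ligase, was at 3.35, 7.10 and 3.26 CPM in TAC, 8.86 to 12.7 CPM in WT and 1.66 to 2.07 CPM in sham, with TAC between the others at -1.21 ± 0.21 from WT (-1.68 ± 0.17). The vesicle protein Scamp5 was at -0.75 ± 0.18 (-1.14 ± 0.15) and Prune2 at -0.47 ± 0.16 (-0.59 ± 0.17). Fkbp11, a prolyl isomerase of the secretory pathway, and Nabp1, a single-strand DNA binding protein, had adjusted p of 0.0475 and 0.0485, calls that 21 of the alternatives ended for each gene. Nabp1 was at 25.6, 71.4 and 21 CPM in TAC and 59.7 to 85.2 CPM in WT, so TAC replicate 2 lay within WT. Without that library the rise from sham was not called for Scamp5 (0.36, adjusted p = 0.0769) or Nabp1 (0.40, adjusted p = 0.0789). It was still called for Neurl1a (0.80, adjusted p = 0.0022), Prune2 (0.80, adjusted p = 1.15e-04) and Fkbp11 (0.88, adjusted p = 0.0376).

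Falls from sham that stayed above WT included genes of skeletal muscle. Atp2a1, which returns calcium to the reticulum in fast muscle fibres, was at 4.63, 0.592 and 4.29 CPM in TAC, 0.258 to 0.624 CPM in WT and 8.90 to 13.8 CPM in sham. TAC replicates 1 and 4 lay between sham and WT, the library labelled TAC replicate 2 lay within WT, and the difference was 2.93 ± 0.45 (3.43 ± 0.21). Tnni2, fast skeletal troponin I, was at 4.55, 0.631 and 5.37 CPM against 0.497 to 1.30 CPM in WT, higher by 1.93 ± 0.45 (2.44 ± 0.27). Ptprt, a receptor phosphatase, was higher by 1.74 ± 0.39 (2.21 ± 0.23) and Alox5, which makes leukotrienes, by 1.21 ± 0.29 (1.58 ± 0.21). Kcne1, a potassium channel subunit, was higher by 1.20 ± 0.36 (1.53 ± 0.34). TAC replicate 2 lay within the WT range for Ptprt, Alox5 and Kcne1, at 1.38, 5.84 and 14.8 CPM. Without TAC replicate 4 the calls of Alox5 (0.61, adjusted p = 0.0590) and Kcne1 (0.63, adjusted p = 0.1875) ended, and that of Kcne1 also ended with the replicate block (1.15, adjusted p = 0.0697). With WT and sham reduced to libraries in which Arntl exceeded Dbp, Ptprt (1.66, adjusted p = 0.0872), Tnni2 (1.74, adjusted p = 0.0999), Alox5 (1.25, adjusted p = 0.0765) and Kcne1 (1.13, adjusted p = 0.1539) were not called. Lpar3, a lysophosphatidic acid receptor, was not called without TAC replicate 2 (1.22, adjusted p = 0.0546) or with the Y-linked covariate (1.71, adjusted p = 0.0506). Of 13 tested skeletal muscle isoforms, 7 were higher and 1 lower than WT (8 and 1), and 9 were higher in sham than in WT. Against sham the list went both ways, with 2 higher and 3 lower in TAC (3 and 3). Its summed level was 559, 345 and 768 CPM in TAC replicates 1, 2 and 4 and 242 to 320.2 CPM in sham. In TAC replicate 4 Casq1 alone, at 466 CPM, exceeded that sham range, so not every member named here fell from sham. Tnnt3, fast skeletal troponin T, was at 5.39, 0.434 and 4.21 CPM in TAC and 2.7 to 4.79 CPM in sham (3.33 ± 0.56 from WT, and 3.86 ± 0.34). Casq1, the skeletal calsequestrin, was at 273, 107 and 466 CPM in TAC against 25.3 to 48.7 CPM in WT, and Mybpc2, the fast myosin binding protein, at 122, 149 and 197 CPM against 21.5 to 48.6 CPM, higher by 2.93 ± 0.49 (3.33 ± 0.47) and 2.19 ± 0.30 (2.23 ± 0.34). Cacna1s, the skeletal calcium channel, was the lower member at -1.93 ± 0.28 (-2.64 ± 0.18).

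Falls from a sham level above WT that did not pass against WT included Sfrp5, Epop, Acot1, Ankrd63, Sema6c and Oprd1. Sfrp5, a secreted Wnt inhibitor, was at 0.519, 1.70 and 3.91 CPM in TAC, around the WT range of 1.07 to 3.09 CPM, and at 9.43 to 16.9 CPM in sham (-0.08 ± 0.59, adjusted p = 0.9272, and 0.03 ± 0.70 without TAC replicate 2). Sema6c, a transmembrane semaphorin, was at 12.6, 5.76 and 21.5 CPM in TAC and 5.77 to 10.9 CPM in WT, and was called above WT once TAC replicate 2 was left out (0.79 ± 0.41, adjusted p = 0.1498, then 1.16 ± 0.40, adjusted p = 0.0406). The delta opioid receptor Oprd1 was at -0.48 ± 0.27 (adjusted p = 0.1915, and -0.37 ± 0.31 without TAC replicate 2) and Epop at -1.02 ± 0.57 (adjusted p = 0.1787, and -0.67 ± 0.64). The acyl-CoA thioesterase Acot1 was at -0.74 ± 0.50 (adjusted p = 0.2705, and -0.34 ± 0.51), but was called below WT without TAC replicate 4 (-1.73, adjusted p = 0.0186) and with the clock covariate (-1.17, adjusted p = 0.0359). Ankrd63 was at 0.90 ± 0.47 (adjusted p = 0.1506, and 1.28 ± 0.47 with 0.0502). It was called above WT with the Y-linked covariate (1.93, adjusted p = 0.0199), with the clock covariate (1.31, adjusted p = 0.0272) and in TAC replicate 4 alone (1.87, adjusted p = 0.0180).

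Calcium handling genes were higher in none and lower in 10 of 26 (2 and 9 without TAC replicate 2). Sham was lower than WT in 8 and higher in 1 of the 26. TAC was higher than sham in 5 and lower in 8 (5 and 5 without TAC replicate 2), with a median of 0.12. Atp2a2, the cardiac calcium pump SERCA2, was at 12411, 10988 and 14750 CPM in TAC and 16873, 17029, 18626, 17988 and 17771 CPM in WT. No TAC library reached the WT range, and the difference was -0.47 ± 0.10 (adjusted p = 0.0011; -0.38 ± 0.10 and 0.0082 without TAC replicate 2), or -0.26 (adjusted p = 0.1610) in TAC replicate 4 alone. Pln, the pump's inhibitor phospholamban, was at -0.48 ± 0.09 (-0.41 ± 0.10), not called in TAC replicate 4 alone (-0.30, adjusted p = 0.1241), the histidine-rich calcium binding protein Hrc at -0.70 ± 0.10 (-0.59 ± 0.10), and the junctional protein Trdn at -0.48 ± 0.09 (-0.38 ± 0.09). Camk2b, a calcium/calmodulin kinase, was at -0.94 ± 0.15 (-1.13 ± 0.15), with sham as far below WT at -1.05.

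Ion channels and connexins were higher in 2 and lower in 10 of 29 (3 and 9), while against sham 18 were lower (19), and 14 were higher in sham than in WT. Kcnd2, a pore subunit of the transient outward current, was at 25.4, 22.4 and 21.7 CPM in TAC and 41.4 to 76.5 CPM in WT, -1.24 ± 0.21 (-1.22 ± 0.26), and its partner Kcnip2 was at -0.89 ± 0.14 (-1.03 ± 0.16). Abcc9, the sulfonylurea receptor of the ATP-sensitive channel, was at -1.06 ± 0.13 (-1.16 ± 0.15) and Kcnj3, of the acetylcholine-gated channel, at -1.07 ± 0.16 (-1.03 ± 0.20), although it is also listed as an atrial marker. Scn4b, a sodium channel beta subunit, was at 15.7, 72.9 and 13.1 CPM in TAC, 152 to 213 CPM in WT and 30.2 to 50.2 CPM in sham. Its difference from WT was -2.41 ± 0.48 (-3.64 ± 0.34), with sham at -2.20. TAC replicate 2 lay above every sham library, and TAC replicates 1 and 4 lay below. With only libraries in which Arntl exceeded Dbp, Scn4b was not called (-2.37, adjusted p = 0.0586). Cacna1g, the T-type calcium channel of the fetal heart, was at 78.4, 65.4 and 107 CPM in TAC and 23.3 to 34.5 CPM in WT, 1.44 ± 0.22 (1.59 ± 0.24) higher, below sham. Of 18 adrenergic, angiotensin and endothelin genes, 2 were higher and 3 lower (1 and 2). The alpha-1A adrenergic receptor Adra1a was at 3.15, 9.70 and 4.47 CPM against 23.7 to 36.5 CPM in WT, -2.40 ± 0.34 (-3.00 ± 0.33), and the receptor kinase Grk5 was higher by 0.76 ± 0.15 (0.84 ± 0.17). Grk5 was not called with the Y-linked covariate (0.75, adjusted p = 0.0517).

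The largest rises over WT, by the rule on size and non-overlap, included Ccnd2, Sprr1a, Cilp, AW551984, Myl4, Syndig1, Tnc, Nppa and Frem1. Sprr1a, a small proline-rich protein of stressed cells, was at 1.76, 35.2 and 0.859 CPM in TAC and 0 to 0.490 CPM in WT, so its 5.81 ± 1.02 rested on the library labelled TAC replicate 2 and was 2.55 ± 0.61 without it and 1.94 in TAC replicate 4 alone (adjusted p = 0.1194). Cilp, a matrix protein of activated fibroblasts, was at 173, 167 and 61.4 CPM in TAC and 5.18, 13.3, 5.26, 3.71 and 5.71 CPM in WT, far apart in every library, at 4.34 ± 0.72 (4.15 ± 0.78). Syndig1, a membrane protein known from synapses, was at 14.9, 6.78 and 9.28 CPM against 0.197 to 1.19 CPM, 4.17 ± 0.38 (4.40 ± 0.38), and at 0.365 to 0.905 CPM in sham. Frem1, a basement membrane protein, was higher by 3.79 ± 0.37 (3.45 ± 0.38) and AW551984 by 4.21 ± 0.69 (4.64 ± 0.66). Myl4, the atrial essential light chain, was at 44.7, 182 and 187 CPM in TAC and 3.66 to 19.6 CPM in WT, 4.20 ± 0.92 (3.95 ± 1.01). Sham held 40.2 to 375 CPM of Myl4, and TAC did not differ from it by the test (-0.11, adjusted p = 0.9379). The atrial list was higher in 4 and lower in 1 of 8 tested (1 and 1 without TAC replicate 2), and its part in Myl4 was not tested. The rises from sham that lay above WT were led by Nppa, Nppb, Serpinb1c, Syndig1, Lman1l and Tnc, of which Serpinb1c, a serine protease inhibitor, was 2.88 ± 0.47 (2.82 ± 0.53) and Lman1l, a lectin-like protein, 2.87 ± 0.48 (2.71 ± 0.53) above WT.

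The largest falls below WT included Acsm5, Penk, Ogdhl, Ccl11, Inmt, Ppl, Mylk4 and Lgi1. Ogdhl, a relative of the oxoglutarate dehydrogenase E1 subunit, and the kinase Mylk4 were furthest from WT in TAC replicates 1 and 4, at 16.8, 75.4 and 25.2 CPM against 287 to 365 CPM and at 32.7, 119 and 31.8 CPM against 302 to 449 CPM. They were at -2.98 ± 0.47 (-3.88 ± 0.44) and -2.59 ± 0.47 (-3.52 ± 0.43), and neither passed the test between TAC and sham with all libraries (adjusted p = 0.7407 and 0.4538). Without TAC replicate 2 Mylk4 was lower than sham (-1.39, adjusted p = 0.0177) and Ogdhl did not pass (-0.71, adjusted p = 0.1933). Acsm5, a mitochondrial acyl-CoA synthetase, was at -3.63 ± 0.34 (-4.57 ± 0.26), with sham at -2.42. Lgi1, a secreted protein known from neurons, was at -2.57 ± 0.30 (-2.59 ± 0.36), with sham at -1.75.

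Other genes lower than WT in TAC were not below it in sham by the test. Ccl11, the chemokine eotaxin, was at 1.36, 1.18 and 1.46 CPM in TAC, 9.42, 7.78, 9.98, 14.0 and 10.7 CPM in WT and 8.59 to 17.0 CPM in sham, so the TAC libraries were below both other groups, at -2.96 ± 0.32 from WT (-2.88 ± 0.39) and -3.27 from sham. Penk, proenkephalin, was at 0.439, 1.85 and 4.47 CPM against 14.1 to 26.5 CPM, -3.18 ± 0.47 (-3.06 ± 0.57). Fbp2, the muscle fructose bisphosphatase, was at 1.8, 3.55 and 3.22 CPM against 11.7 to 16.1 CPM in WT, -2.32 ± 0.21 (-2.51 ± 0.24). Ppl, periplakin, was at -2.69 ± 0.43 (-2.94 ± 0.54), Inmt, a methyltransferase, at -2.78 ± 0.57 (-2.79 ± 0.71; -2.23 with an adjusted p of 0.1144 in TAC replicate 4 alone), and the uncharacterised gene 0610040J01Rik at -2.38 ± 0.35 (-2.63 ± 0.42). Clcn1, the skeletal chloride channel, was at -1.37 ± 0.27 (-1.16 ± 0.30) although its sham level was 1.17 above WT, and it was not called in TAC replicate 4 alone (-0.72, adjusted p = 0.1785). Hbb-bs, a beta globin of red cells, was at 20.8, 10.8 and 22.1 CPM in TAC, 134 to 226 CPM in WT and 25.0 to 275 CPM in sham. Its fall of -3.43 ± 1.02 was not called without TAC replicate 2 (-3.17, adjusted p = 0.0695), and the summed erythroid markers were 30.8, 15.9 and 33.9 CPM in TAC against 179 to 320.2 CPM in WT.

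For interferon response genes and endothelial markers, more members were called against sham than against WT. Of 33 interferon response genes, 19 were higher in TAC than in sham (11 without TAC replicate 2), 17 were lower in sham than in WT, and 5 were higher and 1 lower in TAC than in WT (2 and 1 without TAC replicate 2). WT replicate 3 stood apart for this list, with a median 0.74 above the WT mean against -0.29 to 0.04 in the other WT libraries. Without it 9 interferon genes were higher and none lower in TAC than in WT, and 9 were lower in sham than in WT. Oasl2, an interferon-induced antiviral protein, was at 18.4, 21.6 and 15.5 CPM in TAC and 10.0 to 13.5 CPM in WT, 0.72 ± 0.14 higher (0.59 ± 0.15), but 0.46 with an adjusted p of 0.1293 in TAC replicate 4 alone. Isg15, an interferon-induced ubiquitin-like protein, was at 7.15, 6.90 and 6.44 CPM against 3.30 to 6.39 CPM, and its 0.55 ± 0.20 was not called without TAC replicate 2 (adjusted p = 0.0761). None of 12 endothelial markers differed between TAC and WT at an adjusted p under 0.05, while 6 were higher in TAC than in sham (2 without TAC replicate 2). Pecam1, the endothelial adhesion protein CD31, was at 266, 251 and 274 CPM in TAC, 267, 233, 214, 259 and 239 CPM in WT and 186 to 221 CPM in sham, 0.12 ± 0.08 from WT (adjusted p = 0.2616, and 0.16 ± 0.09 without TAC replicate 2).

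The other lists follow, read against 16.9% of all genes higher and 17% lower. Immediate early genes were higher in 11 and lower in none of 25 (10 and none), with Egr2 at 3.09 ± 0.43 (2.97 ± 0.48) and Egr3 at 2.81 ± 0.40 (2.64 ± 0.44), both early growth response factors. Egr3 was not called with the Y-linked covariate (1.52, adjusted p = 0.0644). Sham was already higher than WT in 6 of the 25 (median 0.52). TAC was higher than sham in 3 (3 without TAC replicate 2), beside 16.5% of all genes. The insulin-like growth factor axis was higher in 7 and lower in 1 of 13 (5 and 1), with the ligand Igf1 at 52.3, 48.6 and 27.3 CPM in TAC against 13.5 to 20.1 CPM in WT (1.38 ± 0.21, and 1.28 ± 0.23, but 0.73 with an adjusted p of 0.0634 in TAC replicate 4 alone) and the binding protein Igfbp7 higher by 1.29 ± 0.18 (1.15 ± 0.20). Of 17 p53 targets, 7 were higher and 3 lower (6 and 2), including Phlda3, an inhibitor of AKT, at 1.44 ± 0.18 (1.45 ± 0.21) and cyclin G1 gene Ccng1 at -0.90 ± 0.11 (-0.93 ± 0.13). Of 23 endoplasmic reticulum folding genes, 9 were higher and 1 lower (9 and 1), with the disulfide isomerase Pdia4 at 0.67 ± 0.10 (0.58 ± 0.10), and of 17 heat shock genes 6 were higher and 1 lower (5 and none), with the small heat shock protein Hspb1 at 1.13 ± 0.18 (1.10 ± 0.21). Ribosomal proteins were higher in 10 and lower in none of 41 (7 and none), where Rpl32 lay 0.33 ± 0.08 (0.35 ± 0.10) above WT and 0.36 above it in sham. Cardiac transcription factors were higher in 5 and lower in 2 of 23 (4 and none), hypoxia and angiogenic factors in 3 and 7 of 22 (1 and 6), cytokines and chemokines in 1 and 4 of 28 (2 and 2), and clock genes in 1 and 2 of 19 (1 and 1). Dbp was at -3.39 ± 1.36 (adjusted p = 0.0665, and -3.50 ± 1.73) and had the same split between WT libraries as given above.

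The remaining cell type markers are given as counts higher and lower than WT. Smooth muscle and pericyte markers had 2 and 2 of 11 (2 and 2), lymphatic endothelial markers 3 and 0 of 6 (2 and 0), cardiomyocyte markers 1 and 4 of 9 (1 and 2), mesothelial markers 1 and 0 of 7 (0 and 0), and erythroid markers 0 and 3 of 4 (0 and 0). T cell markers had 1 and 0 of 4 (1 and 0) and Schwann cell markers 0 and 1 of 3 (0 and 1). No call was made among 3 neutrophil, 4 B cell, 5 mast cell and 4 adipocyte markers by edgeR with all libraries. The summed adipocyte markers were at 0.0798, 8.88 and 1.59 CPM in TAC and 0.0983 to 0.516 CPM in WT, highest in the library labelled TAC replicate 2.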

How the data were processed

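RNA from left ventricular myocardium was sequenced per the labels' protocols after library preparation with a TruSeq RNA v2 kit, a chemistry that loses strand. The deposited values are raw read counts per Ensembl gene. The submitters' processing notes name the tools STAR 2.3.0e, HTSeq 0.6.1p1, DESeq2 1.8, CASAVA 1.8.2, SAMtools 0.1.19 and FastQC, and the builds GRCm38 and mm10. The annotation release and strand setting are not given in the sources used here, so reads of overlapping or antisense genes and of near-identical copies may be split.

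The 5 summary lines of each file were dropped. For symbols and positions, 36602 of 38355 IDs were found in GENCODE M21, and unmatched IDs held at most 0.16% of counts. Counts of all 18 libraries were normalised with TMM, filtered with filterByExpr (minimum count 10) and fitted together, with 1 mean for each of the 4 groups of the series, with edgeR 4.0.16 (limma 3.58.1, R 4.3.3), so the groups share 1 estimate of spread; the volume-loaded Shunt libraries enter only this estimate. Quasi-likelihood tests were Benjamini-Hochberg adjusted over all 14876 genes tested, and an adjusted p under 0.05 was called. Results are given for the 14241 autosomal genes. DESeq2 1.42.0 was an alternative. CPM values use TMM library sizes. The steps were checked on simulated data, and no 2 libraries of a group were alike within counting noise. To look for pairing, each group's mean was subtracted from each gene's log2 CPM. These residuals correlated at -0.02, 0.105 and 0.137 between same-numbered TAC and WT libraries, so numbers were not taken as pairs.

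Genes and lists were chosen with earlier results of these data known. Named were a panel of 12 known load genes, the 10 largest rises and 10 largest falls against WT, and the 6 largest changes from sham in each class. The rises and falls had to be called with and without TAC replicate 2, be protein-coding, average 1 log2 CPM or more and not overlap between libraries, and the class members not to overlap between TAC and sham. From each list came up to 4 members of smallest p, and a few that the list is best known for. Alternatives were other scalings, filters, covariates, tests and leaving out each library. A few genes that this rule names are not reported here.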

Additional observations from a re-analysis of the deposited data

Results flagged for a closer look

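In 7 of 142 groups of WT libraries tested, 1 library stood apart from the other 4, measured as its gap to the nearest library over the whole range and compared with Dixon's critical value of 0.71. Chance alone puts about 1 in 20 groups past that value. Ankrd1 had a ratio of 0.755, with WT replicate 5 at 3745 CPM and the others at 1526 to 2070 CPM. WT replicate 2 was the high library for 4 genes. They were Myl4 (ratio 0.883, 19.6 CPM against 3.66 to 5.53 CPM), Myl7 (0.876, 8.09 CPM against 0.0904 to 1.08 CPM), Cilp (0.792, 13.3 CPM against 3.71 to 5.71 CPM) and Slc16a3 (0.868, 4.54 CPM against 3.16 to 3.35 CPM). Ogdhl had a ratio of 0.779, with WT replicate 3 at 365 CPM and the others at 287 to 304 CPM, and Inmt one of 0.735, with WT replicate 4 at 16.0 CPM and the others at 8.47 to 10.5 CPM.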

How the results depend on the processing

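Of 142 named genes, 127 were called against WT, and 69 of these were called under every alternative run. In this paragraph, 8 counts are given in 1 order, genes higher and lower than WT, then rises from sham above WT, from below WT without passing, and staying below WT, then falls below WT, from above WT without passing, and staying above WT. The Y-linked covariate gave 859, 894, 164, 87, 0, 111, 58 and 0. It also ended the calls of 29 named genes. A test against a 1.5-fold change gave 507, 304, 239, 35, 1, 68, 22 and 3. TAC reduced to replicate 4, an alternative chosen after seeing the data whose lone library is assumed to vary like the other groups, gave 1143, 1202, 243, 84, 4, 217, 103 and 2. The 6 class counts were 594, 68, 10, 398, 85 and 4 with only libraries in which Arntl exceeded Dbp. Leaving out TAC replicate 2 as well, also chosen after seeing the data, gave 720 and 113 for the first 2 rises and 484 and 143 for the first 2 falls. Rises staying below WT and falls staying above WT numbered 24 and 19 with no low-count filter, 15 and 10 with each pair of groups fitted alone, and 23 and 17 with the clock covariate. Leaving out 1 library at a time gave 1641 to 2483, 1717 to 2386, 901 to 1508, 231 to 513, 17 to 37, 713 to 1238, 405 to 640 and 16 to 38, with the lowest counts without TAC replicate 1 or 2. The cause of these shifts was not tested, beyond fewer libraries in some fits.

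With the replicate number as a block the 8 counts were 2190, 2217, 1274, 413, 36, 993, 496 and 32. The residuals of same-numbered TAC and WT libraries did not all correlate above 0.1, so the numbers were not read as pairs.

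The Myh6 difference turned positive without WT replicate 4 (0.04), without TAC replicate 2 (0.12), with the Y-linked (0.19) and clock (0.06) covariates, with Arntl above Dbp (0.11, and 0.28 without TAC replicate 2) and in TAC replicate 4 alone (0.19). Sfrp5 turned positive without WT replicate 2 (0.08) or 3 (0.02), without TAC replicate 1 (0.38) or 2 (0.03), with the Y-linked covariate (0.95) and in TAC replicate 4 alone (0.86). Acot1 did so in the last 2 settings (0.34 and 0.27), and Ankrd63 stood at -0.00 without TAC replicate 4. Without TAC replicate 4 Myh6 was at -0.19 and Sfrp5 at -0.95, and without TAC replicate 2 Ankrd63 was at 1.28. None of these was called in the comparison as reported, but Acot1 and Ankrd63 gained calls in some settings.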
